A study of Homo sapiens with 16 samples.

Results

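The genes examined here encode respiratory complex I and the factors that build it. They were taken as every nuclear protein-coding gene of the RefSeq table for GRCh38 whose symbol begins with NDUF, which gave 46 genes of 20033. By role they comprised 7 core subunits, 30 accessory subunits, 8 assembly factors (NDUFAF symbols) and 1 read-through gene, NDUFC2-KCTD14. NDUFA4 and its relatives are listed in that table under COXFA4 symbols and were therefore not among the 46.

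Chromatin immunoprecipitation followed by sequencing had been used to map BMAL1 in U2OS, an osteosarcoma line of human origin, and in U2OS-CHRONO. The labels name them U2OS_WT and U2OS_CHR. The series design speaks of Myc-CHRONO as the target of the further library from U2OS-CHRONO made with a Myc antibody. Both lines had received 200 nM dexamethasone, which aligns the clocks of a culture, and BMAL1 was mapped at 6 times 4 h apart, from 0 to 20 h. The start of collection had been set 4 h ahead of the trough of a luciferase reporter driven by the BMAL1 promoter. The Myc library carried no time or treatment label. The sources used here do not give how U2OS-CHRONO was made or whether it is 1 clone. Each line and time had 1 library, so the 6 times are matched pairs and not replicates, and any spread given is a spread over times. Of the 16 samples, the 3 inputs were not analysed here. Peak lists carry no expression values, so the cell type could not be checked by markers.

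Complex I, NADH:ubiquinone oxidoreductase, is the entry point for electrons from NADH into the mitochondrial respiratory chain. It passes electrons through iron-sulfur clusters to ubiquinone and pumps protons across the inner membrane. The core subunits carry out this chemistry, the accessory subunits surround and stabilise them, and the assembly factors act on the complex while it is built and are not part of the finished enzyme. BMAL1 pairs with CLOCK and is known to bind E-boxes with the letters CACGTG. CHRONO is the protein of the gene CIART and represses BMAL1 and CLOCK.

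Read depth was unknown, and the peak lists were the measured quantity. The U2OS lists held 337 to 6012 peaks and the U2OS-CHRONO lists 2429 to 9391, the latter longer at 6 of 6 times, and the Myc list held 2487. As a check of the antibody, 7 of 7 well-known BMAL1 targets (PER1, CRY1, CRY2, NR1D1, NR1D2, DBP and BHLHE40) were marked at a gene end in all 12 BMAL1 lists. A gene-end peak is here a peak overlapping 1 kb either side of either end of a gene by at least 1 bp. Each peak has the authors' score, whose definition is not stated. It was used to rank and filter peaks within their own list, and scores of different lists are given as values and not compared. A rank is given either as a place or as a percentage from the top of the list, so that a low percentage is a high peak.

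The 4 promoters at which most of the gene-end peaks of these genes lay are shown first. Each runs from 250 bases before to 50 bases after the transcription start in RefSeq (GRCh38.p14), 5′ to 3′ on the strand of the gene, and capitals mark CACGTG, or CACGTT on either strand. NDUFB8 (chr10:100529874-100530173, minus strand) and NDUFAF4 (chr6:96897842-96898141, minus strand) had peaks at 6 and 5 U2OS-CHRONO times and at no U2OS time. NDUFAF5 (chr20:13784778-13785077, plus strand) had peaks at 4 times in each line and in the Myc list. NDUFA11 (chr19:5903741-5904040, minus strand) had peaks at 3 U2OS-CHRONO times. Of these, the 4 h peak lay upstream of the bases shown and overlapped none of them.
NDUFB8: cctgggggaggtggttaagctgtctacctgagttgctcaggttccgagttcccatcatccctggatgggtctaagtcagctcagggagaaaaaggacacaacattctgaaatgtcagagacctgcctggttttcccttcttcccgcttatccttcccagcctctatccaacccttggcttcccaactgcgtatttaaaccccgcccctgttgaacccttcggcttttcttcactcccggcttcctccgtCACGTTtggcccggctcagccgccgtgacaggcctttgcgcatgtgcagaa
NDUFAF4: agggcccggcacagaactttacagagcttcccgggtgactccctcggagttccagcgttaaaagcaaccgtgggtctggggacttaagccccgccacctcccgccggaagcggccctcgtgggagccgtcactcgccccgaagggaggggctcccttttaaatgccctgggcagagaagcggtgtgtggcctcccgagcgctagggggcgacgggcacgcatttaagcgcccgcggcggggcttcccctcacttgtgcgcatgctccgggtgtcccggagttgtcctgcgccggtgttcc
NDUFAF5: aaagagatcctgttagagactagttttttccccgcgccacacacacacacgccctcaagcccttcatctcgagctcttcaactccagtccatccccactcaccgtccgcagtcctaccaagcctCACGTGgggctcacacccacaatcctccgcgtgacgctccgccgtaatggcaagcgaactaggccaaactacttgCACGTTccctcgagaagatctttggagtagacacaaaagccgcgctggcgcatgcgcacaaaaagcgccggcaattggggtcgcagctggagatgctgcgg
NDUFA11: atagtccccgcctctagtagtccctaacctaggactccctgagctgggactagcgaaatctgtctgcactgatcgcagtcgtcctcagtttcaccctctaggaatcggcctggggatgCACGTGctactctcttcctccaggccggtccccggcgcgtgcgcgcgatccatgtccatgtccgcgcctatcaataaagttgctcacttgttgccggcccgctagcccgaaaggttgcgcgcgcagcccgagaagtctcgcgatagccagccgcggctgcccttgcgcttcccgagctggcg

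Of the 46 genes, 13 had a gene-end peak in at least 1 of the 13 lists and 33 had none. In BMAL1 lists 12 genes had one, against 20.8% of all genes: 5 in some U2OS list, against 11.1% of all genes, and 8 in some U2OS-CHRONO list, against 18.3% of all genes. NDUFAF5 was the 1 gene marked in both lines (2.17%, against 8.51% of all genes). In U2OS alone 4 genes were marked (8.7%, against 2.59%), and in U2OS-CHRONO alone 7 (15.2%, against 9.75%). The U2OS count rested partly on 4 h, without which it was 3. By role, a BMAL1 gene-end peak was seen at 1 of 7 core subunits, 6 of 30 accessory subunits, 5 of 8 assembly factors and not at the read-through gene, where 20.8% of all genes had one. The shares by role were not tested.

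Most of these peaks were ordinary members of their lists. The 13 lists held 35 gene-end peaks at complex I genes: 8 in U2OS, 25 in U2OS-CHRONO and 2 in the Myc list. Their scores ran from 50.06, near the lowest deposited score of 50, to 177.03. The median rank was 49.4% from the top of the list, and 11 of 35 had a score of at least 100. Of the 35 peaks, 29 also lay within 1 kb of the end of another protein-coding gene, so these 29 cannot be assigned to the complex I gene alone. The remaining 6 were those of NDUFB8.

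**Figure D1:**
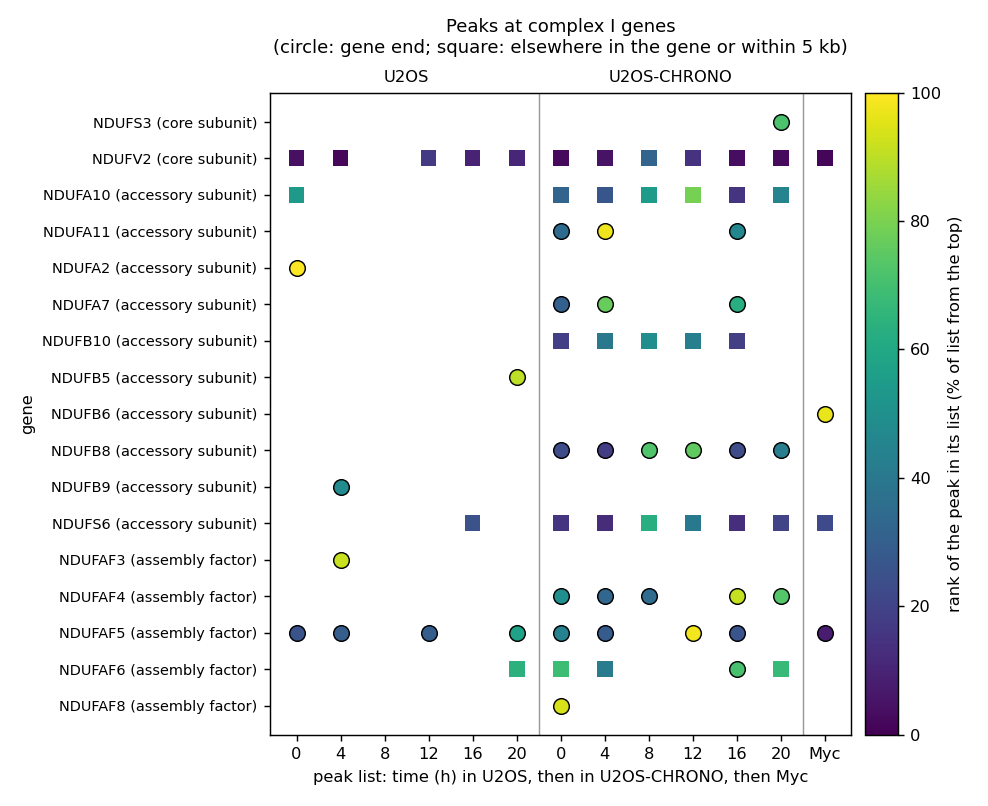
Each row is 1 of the 17 complex I genes with a gene-end peak, or with a peak in the gene or within 5 kb in at least 4 BMAL1 lists or in the Myc list, and each column 1 of the 13 lists (time in h). Circles are gene-end peaks and squares other peaks, coloured by the rank of the highest such peak (% of the list from the top). NDUFB8 and NDUFAF4 are marked at 6 and 5 U2OS-CHRONO times and at no U2OS time. NDUFV2 is marked in 11 BMAL1 lists and in the Myc list by peaks beyond its far end.

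NDUFB8, an accessory subunit in the membrane arm, had the most lopsided pattern. It lies at chr10:100523729-100529923 on the minus strand, and no U2OS list had a peak at either end. The U2OS-CHRONO scores were 133.7 at 0 h, 177.03 at 4 h, 55.64 at 8 h, 56.14 at 12 h, 130.25 at 16 h and 86.47 at 20 h. The peaks of 8 and 12 h were therefore low in their lists, at 72.3% and 75.5% from the top, while those of 0, 4 and 16 h stood at 23%, 17.6% and 22.7%. All 6 peaks shared the 182 bp of chr10:100529839-100530020, and their centres lay from position -19 to 67, where 0 is the first transcribed base. No other protein-coding gene had an end within 1 kb of them. In the promoter above, CACGTT begins at position -1, and all 6 peaks covered it. A second RefSeq start, at 100529871 and so further into the gene, has the same site at position -53 and a copy on the other strand, AACGTG, at position 2, also under all 6 peaks. No Myc peak lay there.

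NDUFAF4, an assembly factor, lies at chr6:96889315-96897891 on the minus strand and had no U2OS peak either. In U2OS-CHRONO the scores were 78.95 at 0 h, 111.76 at 4 h, 82.48 at 8 h, 52.14 at 16 h and 60.25 at 20 h, with no peak at 12 h. The highest rank was 32.7% at 4 h, with 34.9% at 8 h close to it, and the lowest was 91.3% at 16 h. The peaks shared the 184 bp of chr6:96897816-96897999, centred from position -44 to 36. The end of KLHL32 lies within 1 kb of the same peaks. Neither CACGTG nor CACGTT occurs in the promoter window above, which says only that these letters are not in those 300 bases. No Myc peak lay there.

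NDUFAF5, an assembly factor that hydroxylates the core subunit NDUFS7, lies at chr20:13785028-13821580 on the plus strand and was marked alike in number of times in the lines. U2OS scores were 111.77 at 0 h, 107.52 at 4 h, 79.05 at 12 h and 66.17 at 20 h. U2OS-CHRONO scores were 85.44 at 0 h, 123.12 at 4 h, 50.19 at 12 h and 118.74 at 16 h. The times overlapped at 0, 4 and 12 h, the fourth being 20 h in U2OS and 16 h in U2OS-CHRONO, and neither line had a peak at 8 h. The Myc list held a peak of score 107.32 at the same place, ranking 198 of 2487 (7.96% from the top), a higher rank than that of any of the 8 BMAL1 peaks (25.6% to 98.2% in their lists). All 9 peaks shared the 203 bp of chr20:13784834-13785036, centred from position -158 to -48. They covered both the CACGTG at position -126 and the CACGTT at position -51 in the promoter above. The peaks overlapped ESF1, whose end lies within 1 kb.

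NDUFA11, an accessory subunit of the membrane arm, lies at chr19:5891229-5903790 on the minus strand. It had U2OS-CHRONO peaks with scores of 101.25 at 0 h, 51.15 at 4 h and 80.88 at 16 h, and none in U2OS. The ranks were 34.4%, 97.3% and 46.3%, so the 4 h peak was among the lowest of its list. The peaks of 0 and 16 h covered the CACGTG at position -132, and that of 4 h, centred at position -449, did not. VMAC has an end within 1 kb of all 3.

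**Figure D2:**
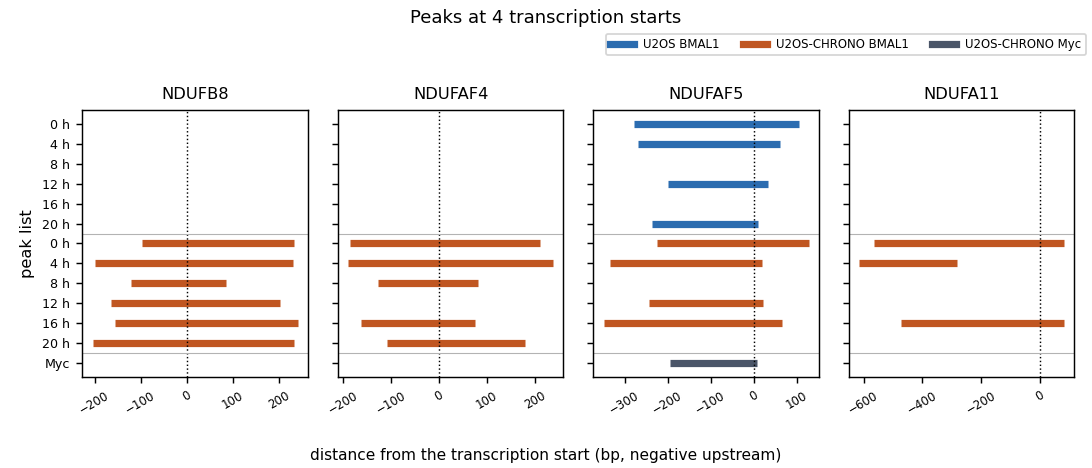
Horizontal bars are peaks drawn to scale by distance from the transcription start (bp, negative upstream, dotted line at 0) for 4 genes, with 1 line per list: U2OS BMAL1 in blue, U2OS-CHRONO BMAL1 in orange and Myc in grey. At NDUFB8 and NDUFAF4 the bars straddle the start at 6 and 5 U2OS-CHRONO times, at NDUFAF5 they lie mostly upstream in both lines and in the Myc list, and at NDUFA11 they reach position -615.

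NDUFA7, an accessory subunit at chr19:8308595-8321375 on the minus strand, had peaks at 3 U2OS-CHRONO times at different places. At its far end, within CD320, the scores were 110.63 at 0 h, 58.99 at 4 h and 65.52 at 16 h. At its start, beside RPS28, there was a further peak of score 56.22 at 4 h, which covered a CACGTG at position -120. The remaining gene-end peaks were seen in 1 list each. In U2OS-CHRONO these were NDUFAF8 at 0 h (score 51.98), NDUFAF6 at 16 h (60.81) and NDUFS3, a core subunit with no other gene-end peak, at 20 h (60.69). In U2OS they were NDUFA2 at 0 h (50.06), NDUFAF3 at 4 h (52.22), NDUFB9 at 4 h (77.1) and NDUFB5 at 20 h (52.2). Of these 7 peaks, that of NDUFB9 ranked highest, at 47.7% of its list, and the others stood at 70.8% to 99.6%. Each also lay at the end of another gene: TEPSIN, CCNE2, KBTBD4, IK and TMCO6, DALRD3, TATDN1 and MRPL47, in the order of naming.

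The lines were then compared time by time. In U2OS, 2, 3, 0, 1, 0 and 2 complex I genes had a gene-end peak at 0, 4, 8, 12, 16 and 20 h. In U2OS-CHRONO the numbers were 6, 5, 2, 2, 6 and 3. U2OS-CHRONO was higher at 6 of 6 times, with 4.0 ± 1.9 genes against 1.33 ± 1.21 (SD, n = 6 times) and a mean difference of 2.67 ± 1.97. The ranges, 2 to 6 and 0 to 3, overlap.

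The shares of all genes took a similar course. Among all 20033 genes the share with a gene-end peak in U2OS was 5.01%, 6.8%, 0.484%, 2.16%, 3.84% and 6.45% over the 6 times. For the 46 genes it was 4.35%, 6.52%, 0.0%, 2.17%, 0.0% and 4.35%. In U2OS-CHRONO the share of all genes was 9.26%, 11.3%, 2.76%, 4.25%, 12.2% and 8.65%, and that of complex I genes 13%, 10.9%, 4.35%, 4.35%, 13% and 6.52%. The means were 2.9% of complex I genes against 4.12% of all genes in U2OS, and 8.7% against 8.08% in U2OS-CHRONO. In U2OS the complex I share was below that of all genes at 5 of 6 times and level with it at 12 h, and in U2OS-CHRONO it was above at 4 times and below at 4 and 20 h. A difference of 1 gene moves the complex I share by 2.17 percentage points, so these shares lie close to the background.

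**Figure D3:**
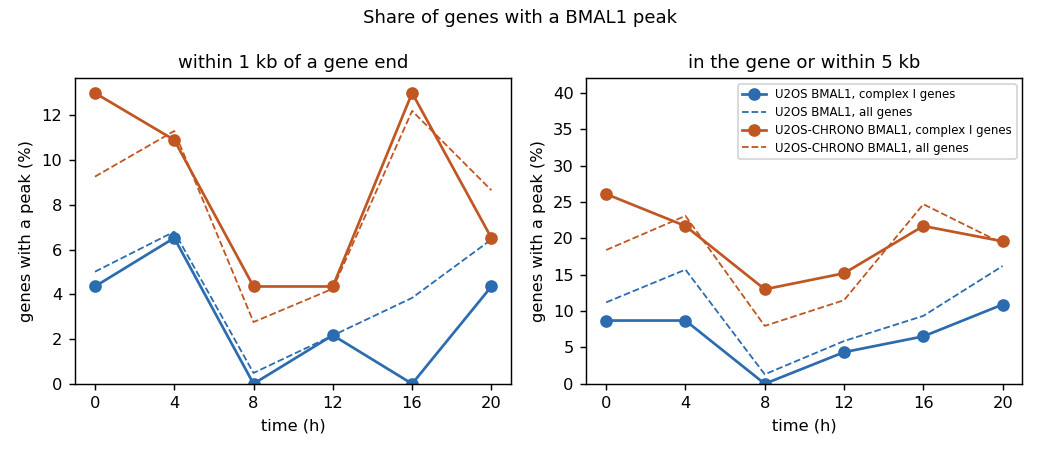
The share of genes with a BMAL1 peak (%) is plotted against time (h), for gene ends on the left and for the gene with 5 kb on each side on the right; solid lines with points are the 46 complex I genes and dashed lines all 20033 genes. The complex I lines run near those of all genes in both lines at gene ends, with U2OS-CHRONO above U2OS at every time.

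Gene by gene, 7 of 46 genes (15.2%) had a gene-end peak at more U2OS-CHRONO than U2OS times, where 15.1% of all genes did. They were NDUFB8, NDUFAF4, NDUFA11, NDUFA7, NDUFS3, NDUFAF6 and NDUFAF8. At fewer U2OS-CHRONO times there were 4 (8.7%, against 3.48% of all genes): NDUFA2, NDUFAF3, NDUFB5 and NDUFB9, each with 1 U2OS peak. Without 4 h the latter number was 2. For 35 genes the numbers were equal, and the median difference was 0 both for complex I genes and for all genes. A surplus of 4 or more U2OS-CHRONO times was found for NDUFB8 and NDUFAF4, 2 of 46 (4.35%), against 1.48% of all genes, which is 297 genes. With 1 time left out, both complex I genes still passed, and the number over all genes was 126, 144, 224, 181, 101 and 137 without 0, 4, 8, 12, 16 and 20 h. None of the 46 had a surplus of 4 or more U2OS times, against 0.025% of all genes.

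An exact paired sign-flip permutation test was run for each of the 20033 genes over the 6 times, two-sided, with Benjamini-Hochberg adjustment over all of them. The smallest p that 6 pairs allow is 0.03125, too large for any gene to be expected to pass adjustment over 20033 genes. NDUFB8 reached it, as 1 of 16 genes (0.0799% of all genes), and NDUFAF4 had an exact paired permutation p of 0.0625. After adjustment no gene passed (0.0% of all genes, with 16 at an unadjusted p under 0.05), and the adjusted exact permutation p was 1.0 for every complex I gene. An adjusted p of this size does not show that the lines were alike.

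Since the U2OS-CHRONO list was the longer at each time, the comparison was repeated with both lists of a time held to the same number of top-scoring peaks. U2OS-CHRONO then had 2.17 ± 1.94 complex I genes per list (SD, n = 6 times) and a mean difference of 0.833 ± 1.47, within the spread over times, being higher at 3 times, equal at 2 and lower at 1. The mean shares were 4.71% of complex I genes and 4.91% of all genes. More U2OS-CHRONO times were seen for 5 of 46 genes (10.9%, against 7.64% of all genes) and fewer for 5 (10.9%, against 5.59%), NDUFAF5 now among the latter. NDUFB8 kept peaks at 4 U2OS-CHRONO times and none in U2OS, the 1 complex I gene (2.17%) with 4 or more additional times, against 0.27% of all genes. NDUFAF4 kept 3 and NDUFA11 and NDUFA7 kept 1 each.

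The Myc list marked few of these genes. Gene-end peaks lay at NDUFAF5 and NDUFB6, 2 of 46 (4.35%), against 5.36% of all genes. The NDUFB6 peak had a score of 50.63 and ranked 2401 of 2487. It lay 571 bp beyond the far end of that gene, over TOPORS and SMIM27, and overlapped no BMAL1 peak of either line. In the gene or within 5 kb, 4 genes (8.7%) had a Myc peak, against 9.79% of all genes, the further 2 being NDUFV2 and NDUFS6. The Myc peaks of NDUFAF5, NDUFV2 and NDUFS6 each overlapped BMAL1 peaks of both lines.

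In the wider window of the gene with 5 kb on each side, 23 of 46 genes had a peak in some list. In U2OS 11 genes had one (26.0% of all genes did), and in U2OS-CHRONO 16 (36.1% of all genes did). Complex I genes are short, with a median length of 12600 bp against 24100 bp for all genes, and this window grows with the gene. U2OS lists marked 3.0 ± 1.79 complex I genes and U2OS-CHRONO lists 9.0 ± 2.19, a difference of 6.0 ± 1.41 (SD, n = 6 times) with U2OS-CHRONO higher at 6 of 6 times. The mean shares were 6.52% against 9.93% of all genes in U2OS and 19.6% against 17.5% in U2OS-CHRONO. With lists of equal size the difference was 2.83 ± 1.94, with U2OS-CHRONO higher at 5 times and equal at 1. At these sizes 11 genes had more U2OS-CHRONO times (23.9%, against 14.0% of all genes) and 7 fewer (15.2%, against 13.1%). NDUFB8, NDUFB10 and NDUFS6 then had 4 or more additional U2OS-CHRONO times (6.52%, against 0.599% of all genes). None of the 46 had that many additional U2OS times, against 0.324% of all genes. With the full lists, more U2OS-CHRONO times were seen for 15 genes (32.6%, against 28.6% of all genes) and fewer for 6 (13%, against 7.37%). A surplus of 4 or more U2OS-CHRONO times was found for 5 genes (10.9%, against 3.07% of all genes): NDUFB8, NDUFAF4, NDUFB10, NDUFA10 and NDUFS6. At 4 or more additional U2OS times there were 0 of 46, against 0.0948% of all genes.

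The highest peaks of the set lay within 5 kb of NDUFV2, a core subunit that holds an iron-sulfur cluster, but not at its ends. They fell in chr18:9136219-9137290, at least 1878 bp beyond the far end of the gene (chr18:9102699-9134341). There they lay over ANKRD12 and within 1 kb of an end of ANKRD12, so they are gene-end peaks of that neighbour. U2OS scores were 340.26 at 0 h, 553.93 at 4 h, 109.87 at 12 h, 188.93 at 16 h and 186.7 at 20 h, with no peak at 8 h. U2OS-CHRONO scores were 504.57, 400.03, 87.09, 139.38, 401.84 and 399.58 at the 6 times, and the Myc score was 188.24. The ranks were 1.61% to 16.6% in U2OS, 2.44% to 31.7% in U2OS-CHRONO and 1.49% in the Myc list, where the peak was number 37. Both lines were thus marked here at every time except 8 h in U2OS, whose list was the shortest, with 337 peaks.

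NDUFS6, a zinc-binding accessory subunit, was marked at 6 U2OS-CHRONO times, at 16 h in U2OS and in the Myc list. The peaks lay between positions -1765 and -1110, upstream of the gene (chr5:1801407-1816048, plus strand), inside MRPL36, a mitochondrial ribosomal protein gene. U2OS-CHRONO scores were 173.86, 223.7, 59.13, 77.91, 188.18 and 135.53 over the 6 times, the U2OS score at 16 h was 101.8 and the Myc score was 75.23. At 16 h the ranks were 25.3% in U2OS and 12.9% in U2OS-CHRONO. With lists of equal size NDUFS6 kept 5 U2OS-CHRONO times.

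Near NDUFB10, an accessory subunit of the membrane arm, peaks were found at 5 U2OS-CHRONO times and none in U2OS. They lay 2570 bp or more beyond the far end of the gene, over RPS2, which encodes a ribosomal protein. An end of RPS2 was within 1 kb of them. Their scores were 155.71 at 0 h, 94.52 at 4 h, 67.36 at 8 h, 75.4 at 12 h and 149.72 at 16 h. They ranked at 18.1% to 48.9%, and none was found at 20 h. With equal list sizes 4 of these times remained.

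NDUFA10, an accessory subunit related to nucleoside kinases, was marked inside the gene, about as far as 97918 bp from its start and near no gene end. The highest peak of each U2OS-CHRONO list had a score of 106.16, 129.22, 63.55, 54.71, 166.01 and 82.23 over the 6 times, and the U2OS peak at 0 h had 68.8. At 0 h, the 1 time at which both lines had the peak, it ranked 53.6% in U2OS and 31.8% in U2OS-CHRONO. Equal list sizes left 4 U2OS-CHRONO times.

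**Figure D4:**
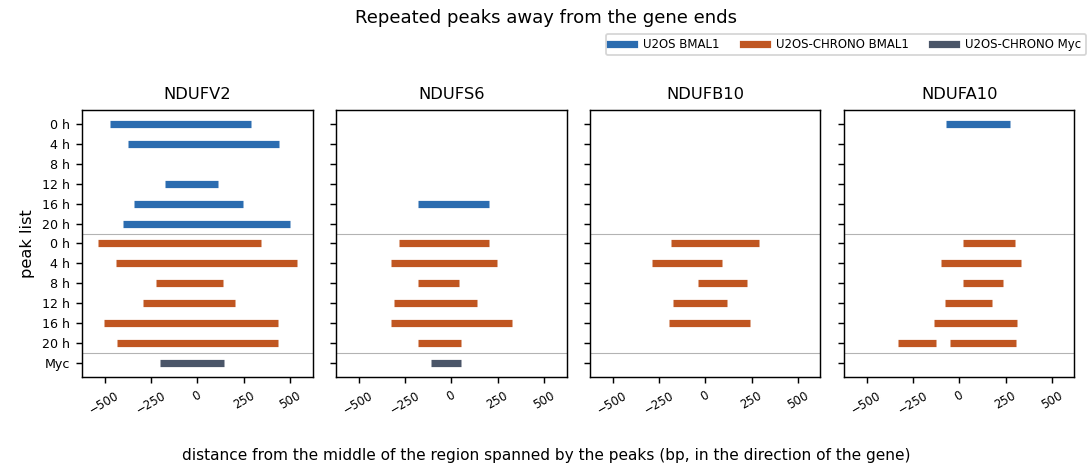
Horizontal bars are peaks drawn to scale by distance (bp, in the direction of the gene) from the middle of the region they span, with 1 line per list: U2OS BMAL1 in blue, U2OS-CHRONO BMAL1 in orange and Myc in grey. NDUFV2 is marked at 5 U2OS and 6 U2OS-CHRONO times, whereas NDUFS6, NDUFB10 and NDUFA10 are marked at 6, 5 and 6 U2OS-CHRONO times and at 1, 0 and 1 U2OS times.

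The other peaks away from gene ends were few. NDUFAF6, an assembly factor with a long gene, had peaks at 2 internal places, 1 of them over TP53INP1, and counting its gene-end peak it was marked at 4 U2OS-CHRONO times and 1 U2OS time. NDUFS1, NDUFS4, NDUFC1 and NDUFC2-KCTD14 had 1 peak each in U2OS-CHRONO, and NDUFS8 had 1 in U2OS. These 5 ranked at 76.8% to 99.4% of their lists.

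The E-box was about as common in these promoters as in all. A RefSeq promoter window was found for 40 of the 46 genes. CACGTG, a palindrome, was present in 4 of 40 (10%), against 10.9% of 15842 protein-coding genes with a window and 7.26% of 35116 windows. The 4 were NDUFAF5, NDUFA11 and NDUFA7, each with a peak over the letters in 9, 2 and 1 lists, and NDUFS7, a core subunit with CACGTG at position -187 and no peak. CACGTT or its complement AACGTG was also present in 4 of 40 (10%), against 7.08% of genes and 5.34% of windows. It was under a peak at NDUFB8 and NDUFAF5 and under none at NDUFA10 (position -199) and NDUFA1 (position -152). Of the 10 genes with both a gene-end peak and a window, 3 had CACGTG and 2 CACGTT. A match is a run of letters and not evidence of binding.

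The rest of the respiratory chain gave a frame for these counts, with gene lists drawn up from textbook roles. Among 11 complex I assembly factors without NDUF in the symbol, 3 had a BMAL1 gene-end peak, with 0.167 ± 0.408 genes per U2OS list and 1.0 ± 0.894 per U2OS-CHRONO list (SD, n = 6 times). The leading gene was ACAD9, an assembly factor related to acyl-CoA dehydrogenases, with 1 U2OS and 4 U2OS-CHRONO times. FOXRED1 and COA1 had 1 U2OS-CHRONO time each, and FOXRED1 also had a Myc peak. Of 8 complex II genes 2 were marked, SDHB at 1 time in each line and SDHD at 1 U2OS-CHRONO time, and SDHAF3 had a Myc peak. Of 12 complex III genes 3 were marked, at more U2OS-CHRONO times each: CYC1, cytochrome c1, at 2 and 5, BCS1L at 0 and 2 and UQCR10 at 0 and 1.

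Complex IV had 5 of 18 genes marked, where 20.8% of all genes were. It had 0.167 ± 0.408 genes per U2OS list and 2.0 ± 1.26 per U2OS-CHRONO list. COX15, of haem A synthesis, had 0 U2OS and 5 U2OS-CHRONO times, and COX11 and SCO2, of copper delivery, 0 and 3 each, both with a Myc peak. ATP synthase went the other way in its mean at gene ends, with 1.0 ± 0.894 genes per U2OS list and 0.5 ± 0.548 per U2OS-CHRONO list. That difference was smaller than the spread in U2OS. In the gene or within 5 kb, U2OS-CHRONO was the higher, with 1.83 ± 1.83 against 1.33 ± 1.37. At gene ends, of the 17 ATP synthase genes, ATP5MC1, a subunit of the membrane ring, had 4 and 2 times and a Myc peak. ATPAF2 had 2 and 0, and ATP5PO 0 and 1 with a Myc peak. With lists of equal size ACAD9 had 1 U2OS and 2 U2OS-CHRONO times, CYC1 2 and 4, COX15 0 and 4, COX11 0 and 2, SCO2 0 and 3, and ATP5MC1 4 and 1. These lists hold few genes, and the lines were not tested on them. Whether their gene-end peaks also lay at the end of another gene was not examined.

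**Figure D5:**
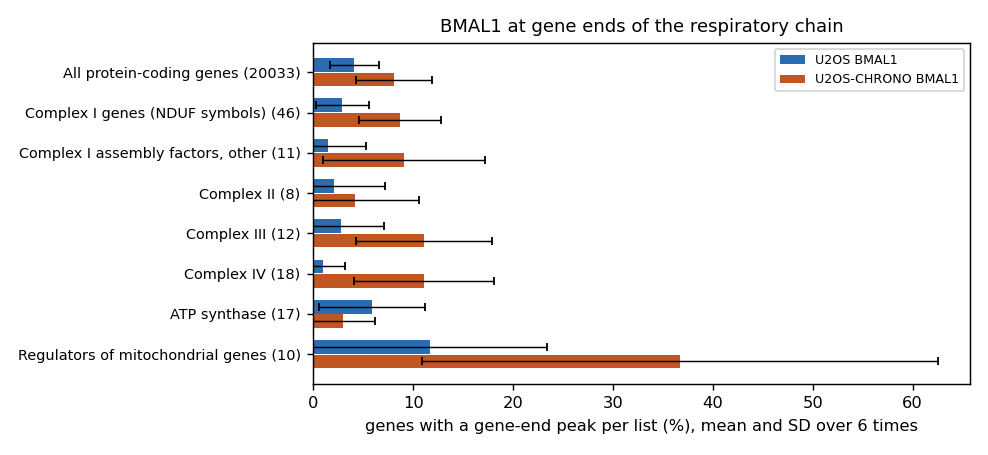
Bars are the mean share of genes of each list (%) with a gene-end BMAL1 peak per peak list, with the SD over 6 times, for U2OS in blue and U2OS-CHRONO in orange; the number of genes is in brackets. Complex I genes, at 2.9% and 8.7%, lie near all protein-coding genes, at 4.12% and 8.08%, and the regulators of mitochondrial genes have the longest bars.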

How the data were processed

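BMAL1 at 6 times in U2OS and U2OS-CHRONO, and Myc in U2OS-CHRONO, were given as 13 peak lists, 1 per library. Per the submitters' processing notes, the build was hg38 and the tools included HOMER 4.10.3, MACS 1.4.2 and bedtools, with no role stated. The aligner, read depth and control were not given in the sources used here. A difference in list length can therefore not be told apart from a difference in sequencing or enrichment. Each peak has a score, deposited by the authors without a definition; it was used to rank peaks within a list and, as a minimum of 100, to filter them. No intervals on depth could be given.

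Genes were those of RefSeq (GRCh38.p14, the same assembly as hg38). Of the 46 genes, 40 had strand and promoter from the RefSeq promoter table. Overlaps (at least 1 bp) were computed with NumPy 2.4.6 and pandas 2.3.3 in Python 3.11.15, were checked against bedtools 2.31.1, and the permutation test was tested on simulated data. Figures used matplotlib 3.10.9. Times were paired by their labels. The genes named are those with a gene-end peak in any list, those with a peak in the gene or within 5 kb in at least 4 BMAL1 lists or in the Myc list, up to 3 of each other list marked in the most BMAL1 lists, and any gene that a count of 5 or fewer singles out. Other genes with a peak within 5 kb and the regulators of mitochondrial genes beyond 3 were named after their values were seen. Values of 1 gene are not reported here. The members, lists and tests were chosen with earlier results of these data known. Alternatives were a score minimum, equal list sizes, other windows, peak centres, the transcription start alone, 3 additional times, no pairing, and each time left out.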

Additional observations from a re-analysis of the deposited data

Results flagged for a closer look

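In all, 14 sets were examined: 10 of the ranks of 1 complex I gene in 1 line with 4 or more lists marked, and 4 of the number of complex I genes per list. Of them 2, both of ranks, held a list far from the others, where chance gives about 1 in 20. At NDUFAF5 in U2OS the 20 h peak stood at 57.6% of its list from the top, with the other 3 between 25.6% and 29.5%. The gap was 0.878 of the whole range. At NDUFAF6 in U2OS-CHRONO the 4 h peak stood at 41.5%, higher than the other 3 times, with a gap of 0.884 of the range. The NDUFAF6 values mix peaks at separate places of a long gene.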

How the results depend on the processing

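The mean difference of the lines, U2OS-CHRONO minus U2OS, stayed above 0 under every alternative run. At equal list sizes U2OS-CHRONO was the lower line at 1 time, 5 genes had more and 5 fewer U2OS-CHRONO times, and the U2OS-CHRONO share went from above all genes (8.7% against 8.08%) to below (4.71% against 4.91%). NDUFAF5, with 4 times in each line, had 4 U2OS and 3 U2OS-CHRONO times at equal list sizes and without 16 h, and 3 and 4 without 20 h. With a score of at least 100, 1 complex I gene was marked in U2OS, 5 in U2OS-CHRONO and 1 in the Myc list. The means were then 0.333 genes in U2OS and 1.33 in U2OS-CHRONO, their difference 1.0, and 4 genes had more and 0 fewer U2OS-CHRONO times. This minimum kept unlike parts of the lists: 19.1% to 32.3% of peaks in U2OS, 25.2% to 37.5% in U2OS-CHRONO and 9.29% in the Myc list. Shares of all genes were not computed for this minimum, for 5 kb around the gene ends or for the start alone. With 5 kb around the gene ends, 9 genes were marked in U2OS and 4 in the Myc list, the means were 2.67 and 7.0, and 11 genes had more U2OS-CHRONO times. With the gene and 5 kb on each side, the counts were 11, 16 and 4, the means 3.0 and 9.0, their difference 6.0, and 15 genes had more U2OS-CHRONO times. At the transcription start alone, 3 genes were marked in U2OS and 1 in the Myc list, and 2 had fewer U2OS-CHRONO times. Genes without a known strand, among them NDUFB5, NDUFB9 and NDUFAF6, could not be counted there. The lower numbers in U2OS therefore reflect missing strands. The genes lost in U2OS were NDUFB5 and NDUFB9, while NDUFAF5, NDUFAF3 and NDUFA2 kept their U2OS times. With 3 or more additional U2OS-CHRONO times, 4 complex I genes passed, and at equal list sizes 1 passed with 4 or more.

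The replicate block was the matched time. Without the pairing, 77 of all genes had an unadjusted exact permutation p under 0.05 with the full lists. With the pairing kept, 16 did with the full lists. At equal list sizes the paired test gave 0, its smallest exact paired permutation p being 0.0625. No gene passed after adjustment in any of these. With each time left out in turn, genes marked in U2OS were 3 to 5 and those with fewer U2OS-CHRONO times 2 to 5, the lowest of each without 4 h. The mean difference was 2.0 to 3.0. Over all genes, 742 had 3 or more additional U2OS-CHRONO times and 30 that many additional U2OS times; with 4 or more at equal list sizes these were 54 and 20, and with a time left out 101 to 224 and 0 to 5. The equal sizes and left-out times for 4 or more additional times, and the wide window at equal sizes, were chosen after seeing the data. Of 312 values of 13 named genes under alternatives, 281 moved little and 31 moved. Many of the 281 belong to a gene without a gene-end peak in that line. Alternatives that only remove peaks or times could not move these, so the count is no measure of stability. Depth was unknown and limits every comparison of the lines.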

Other observations

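Regulators of mitochondrial genes had the highest share of genes marked among the respiratory lists counted. The mean was 11.7% per U2OS list (4.12% of all genes) and 36.7% per U2OS-CHRONO list (8.08% of all genes). Of 10 such genes 3 had a gene-end BMAL1 peak in some U2OS list, against 11.1% of all genes. In some U2OS-CHRONO list 7 had one, against 18.3% of all genes. None had a Myc peak at its ends, against 5.36% of all genes. U2OS lists marked 1.17 ± 1.17 of them and U2OS-CHRONO lists 3.67 ± 2.58 (SD, n = 6 times), and the median gene had 1.5 more U2OS-CHRONO times, against 0 for all genes. TFB1M, a mitochondrial rRNA methyltransferase, had 4 U2OS and 5 U2OS-CHRONO times. ESRRA, a nuclear receptor of energy metabolism, had 2 and 4, and PPARGC1A and PPARGC1B, its coactivators, 1 and 4 and 0 and 4. PPRC1 and TFB2M had 0 and 2 and YY1 0 and 1, while NRF1, GABPA and TFAM had none. With lists of equal size TFB1M had 4 times in each line, ESRRA 2 in each, PPARGC1A 1 and 3 and PPARGC1B 0 and 3. The lines were not tested on this list, and its peaks were not checked for ends of other genes nearby.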
